A study of Homo sapiens with 6 samples.

Results

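The genes described here are 50 human genes that fold, modify and move proteins in the endoplasmic reticulum. They were taken by name from a fixed list and not by a cut on their values. Earlier results of these data were known when the list was chosen. They are 50 of 9813 named human genes with a count in human cells of any library, and 214 of their transcripts were in the count matrices. Secreted and membrane proteins enter the endoplasmic reticulum through a protein channel while they are being made. There their signal peptides are cut off, sugars and disulfide bonds are added, chaperones help them fold, and proteins that fail to fold are sent for degradation. Plasma cells, which secrete antibodies, and the myelomas that come from them are known for high levels of this machinery. Its genes are induced together by the unfolded protein response.

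Single-cell cDNA was read by nanopore sequencing in mixtures of human cells labelled JJN3 and mouse cells labelled 5TGMG1 (5TGM1 in the study's text), both given as myeloma cell lines and neither given any drug or genetic change in the labels. The groups were 10X Chromium at 30 and 35 PCR cycles (2000 labelled cells each), Drop-seq on the Nadia system at 30 and 35 cycles (500 each) and Drop-seq at 25 cycles (1000). Each group was 1 library, so no difference below has a replicate check, and every interval covers counting error only. Barcodes were taken in order of their counts up to the labelled cell number, and those with at least 90% of counts on human transcripts were called human cells. This gave 1006 and 911 human cells with 161961 and 199308 human counts in 10X at 30 and 35 cycles. The Drop-seq libraries gave 251, 166 and 165 human cells with 115245, 67144 and 93499 human counts at 25, 30 and 35 cycles. Median counts per human cell ran from 118 to 352. The 10X matrices held no value below 2, whereas the 3 Drop-seq matrices began at 1 (25 cycles) or 3 (30 and 35 cycles). Values below 3 were therefore left out of every comparison between platforms and of Drop-seq at 30 against 25 cycles, and a gene without a stored value is described as listed at 0 and not as absent.

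The human cells of the 2 platforms did not carry the same marker genes. In 10X the 10 plasma cell markers held 1090 and 873 counts at 30 and 35 cycles, with JCHAIN, the joining chain of antibodies, at 392 and 310, and the 15 T cell markers held 4 and 2. In Drop-seq the T cell markers held 354, 239 and 298 counts at 25, 30 and 35 cycles. CD3G, a chain of the T cell receptor complex, held 102, 73 and 69 of them, in 7, 6 and 5 cells. Not all T cell markers were seen: CD247, CD28, CD5 and LAT were listed at 0 in all 3 libraries. CD3E, TRAC, LCK and RAG1 were stored at 25 cycles alone. Of the plasma cell markers only MZB1 (15, 5 and 7 counts) and FKBP11 (1 count at 25 cycles) were stored in Drop-seq, and JCHAIN, SDC1 and XBP1 were listed at 0 in all 3 libraries. The Drop-seq human cells therefore went against the label of a myeloma line, while parts of the study's text name Jurkat, a T cell line. Platform and cell identity cannot be told apart in any comparison of Drop-seq with 10X below. Libraries of 1 platform also shared barcodes. Of the human cell barcodes, 722 were common to both 10X libraries, 145 to Drop-seq at 30 and 35 cycles and 135 to Drop-seq at 25 and 30 cycles, whereas 10X and Drop-seq had 0 in common at 30 cycles and 0 at 35. The cycle numbers of 1 platform are thus largely repeated readings of the same barcodes and are not independent samples.

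The sequence that marks many resident proteins of the endoplasmic reticulum lumen is shown first, since it is a feature of members that the counts did not use. The KDEL receptors, here KDELR1 and KDELR2, return proteins that end in this signal from the Golgi. The search accepted lysine, arginine, histidine, glutamine, serine or alanine, then aspartate, glutamate, asparagine or glutamine, then glutamate and leucine, at the very end of the canonical coding sequence (GENCODE release 44, hg38). It was met by 7 of 50 members (14%), against 0.274% of 19730 canonical coding transcripts. The last 30 coding bases of 6 of these members follow, with the 12 bases that encode the signal in capitals and the stop codon last.
HSP90B1 (chr12:103947633-103947662, plus strand): gaatctacagctgaaAAAGATGAATTGtaa
HSPA5 (chr9:125236592-125236621, minus strand): gaggatacagcagaaAAAGATGAGTTGtag
P4HB (chr17:81844012-81844041, minus strand): gatcagaaagctgtgAAAGATGAACTGtaa
PDIA6 (chr2:10784258-10784287, minus strand): cttgatgacttagggAAAGATGAGTTGtga
PDIA4 (chr7:149003794-149003823, minus strand): aaactgagcaggaccAAGGAAGAGCTTtga
SDF2L1 (chr22:21644146-21644175, plus strand): gagccctctgcaggtCACGATGAACTCtga
All 7 were among the 17 chaperones and folding enzymes, 10 of which did not meet the search, and no channel, signal peptidase or glycosylation subunit ended in the signal. The members that met it did not share a level: HSP90B1 held up to 668 counts in a library and HSPA5 at most 21.

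The promoters of several members also share the element through which the unfolded protein response acts. The ER stress element was searched as CCAAT and CCACG with any 9 bases between them, and its second form as ATTGG and CCACG with any 1 base between them, on both strands, in RefSeq promoters of GRCh38.p14 that run from 250 bases before to 50 bases after each start. A promoter was found for 45 of 50 members. The first form was present in 7 of these 45 (15.6%) and the second in 3 (6.67%), against 0.0916% and 0.0696% of 27305 genes. The windows of some members with an element follow, with the element in capitals and 5 bases on either side.
HSP90B1, first site (chr12:103930211-103930239, gene strand): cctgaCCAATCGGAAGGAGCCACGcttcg
HSP90B1, second site (chr12:103930316-103930344, element on the other strand): gggtgCGTGGTGCGGCGCGATTGGtgggt
HSPA5 (chr9:125241386-125241414, gene strand): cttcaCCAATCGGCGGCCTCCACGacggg
CALR (chr19:12938379-12938407, element on the other strand): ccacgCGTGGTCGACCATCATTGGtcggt
CANX (chr5:179698773-179698801, gene strand): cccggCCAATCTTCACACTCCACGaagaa
HERPUD1, second form (chr16:56932020-56932040, gene strand): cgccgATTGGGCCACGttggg
SDF2L1, second form (chr22:21642109-21642129, element on the other strand): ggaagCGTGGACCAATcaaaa
The other genes with an element were CRELD2, PDIA6, SERP1 and HYOU1. A match is a description of the letters and not evidence of binding in these cells.

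The 50 genes took 1.69% of human counts (95% exact binomial interval 1.63 to 1.75) in 10X at 30 cycles and 1.76% (1.70 to 1.82) at 35 cycles, with values as stored. In Drop-seq they took 0.543%, 0.494% and 0.527% at 25, 30 and 35 cycles. With values below 3 left out, the shares were 1.01% and 1.15% in 10X and 0.598%, 0.494% and 0.527% in Drop-seq. The share in Drop-seq was 0.491 times that in 10X at 30 cycles (95% interval 0.426 to 0.566) and 0.460 times (0.412 to 0.513) at 35 cycles. The 3 Drop-seq intervals lay below both 10X intervals, and the sizes depended on how transcripts and low values were counted (0.293 to 0.706 at 30 cycles and 0.299 to 0.683 at 35 cycles over the alternatives).

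**Figure D1:**
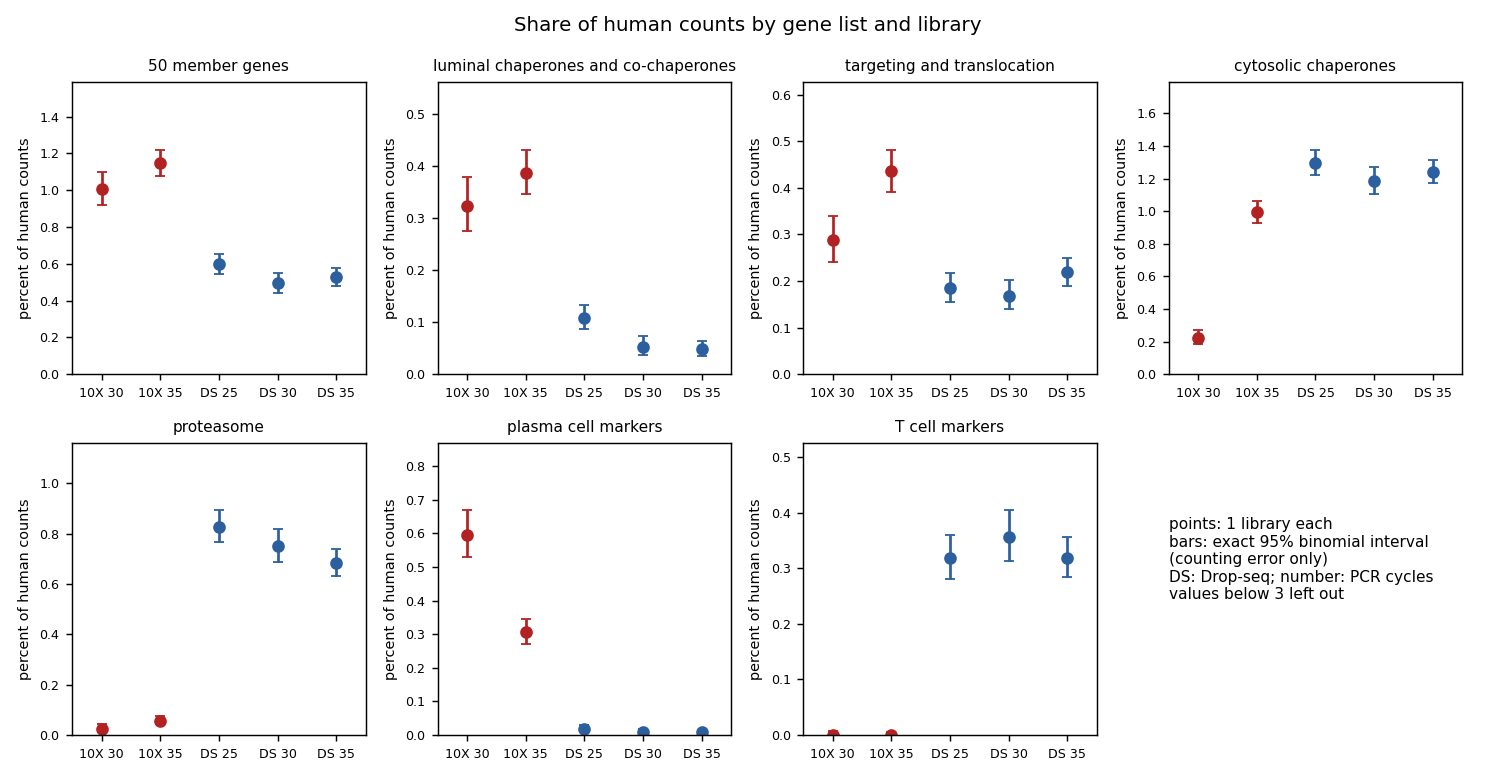
Share of human counts (percent, vertical axes from 0) taken by the 50 genes, by 2 of their role groups and by 4 comparison lists in each library, with values below 3 left out; points are single libraries and bars exact 95% binomial intervals. The 50 genes lay at 1.01% and 1.15% in 10X and between 0.494% and 0.598% in Drop-seq, while proteasome and T cell genes were higher in Drop-seq.

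A few genes held most member counts in 10X. HSP90B1, SSR2, SPCS2 and HERPUD1 left 193 of 484 member counts to the other 46 genes in 10X at 30 cycles and 264 of 970 at 35 cycles. Without these 4, a choice made after their values were seen, the share of the other 46 genes in Drop-seq was 1.11 times that in 10X at 30 cycles (0.925 to 1.34) and 1.62 times (1.39 to 1.89) at 35 cycles. Because these 4 were chosen for their high 10X counts, and no leading gene of Drop-seq was left out in return, the ratio had to rise, and the values only describe how counts were distributed over members. Lists outside it also differed between the platforms. The 25 proteasome genes took 30.1 times the 10X share at 30 cycles (17.1 to 58.7) and 12.1 times (8.99 to 16.5) at 35 cycles, and the 19 cytosolic chaperone genes 5.33 times (4.35 to 6.58) and 1.25 times (1.14 to 1.37). With only the largest transcript value per gene and barcode, cytosolic chaperones took 10.6 times and 2.41 times the 10X share. A further 54 genes of the endoplasmic reticulum, 3 of which (XBP1, FKBP11 and MZB1) are also among the plasma cell markers, took 1.03 times (0.847 to 1.25) and 1.61 times (1.38 to 1.88) the 10X share, or 1.46 times and 2.32 times with the largest transcript value. Of these 54, 1 had enough counts for the gene comparison described below at 35 cycles and was lower in Drop-seq, and of 3 with enough counts between cycle numbers in 10X 0 were called.

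**Figure D2:**
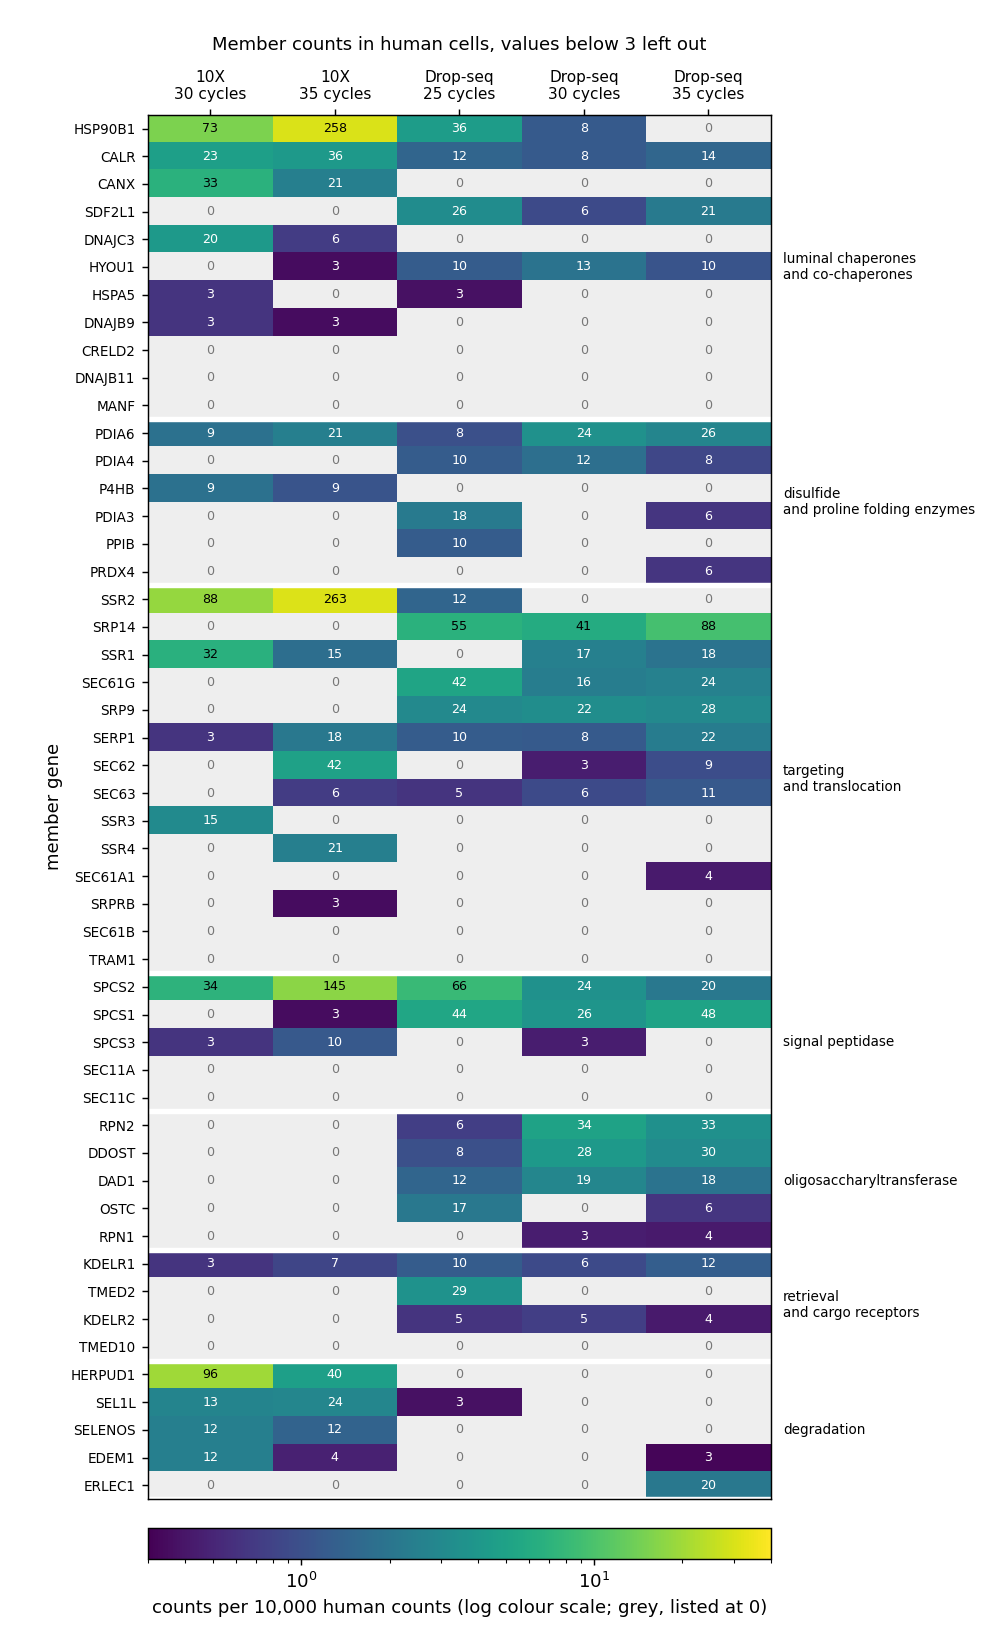
Counts of each of the 50 genes (rows, grouped by role) in human cells of each library (columns), with values below 3 left out; the number is the summed count and the colour the share of human counts on a log scale, grey where the gene is listed at 0. HSP90B1, SSR2 and SPCS2 were brightest in 10X, and SRP14, RPN2 and DDOST were stored in Drop-seq and listed at 0 in 10X.

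Luminal chaperones took a lower share of counts in Drop-seq than in 10X. From here to the paragraph on degradation genes, counts leave out values below 3 unless stored values are named. The 11 genes held 155 and 327 counts in 10X at 30 and 35 cycles and 87, 35 and 45 counts in Drop-seq at 25, 30 and 35 cycles. Their share in Drop-seq was 0.162 times that in 10X at 30 cycles (0.109 to 0.234) and 0.125 times (0.0891 to 0.170) at 35 cycles. With only the largest transcript value per gene and barcode these became 0.280 times (0.173 to 0.438) and 0.340 times (0.234 to 0.484). HSP90B1, the lumenal member of the HSP90 family (chr12:103930410-103947926, 18 exons), held 73 counts in 10 cells and 258 counts in 30 cells in 10X, against 36 counts in 1 cell, 8 counts in 1 cell and none stored in Drop-seq. Without HSP90B1 the other 10 chaperones remained lower in Drop-seq, at 0.236 times (0.147 to 0.368) and 0.590 times (0.396 to 0.871). CALR, the calcium-binding lectin chaperone of the lumen, held 23 and 36 counts in 10X and 12, 8 and 14 counts in Drop-seq, and was stored in every library. CANX, its membrane-bound relative, held 33 and 21 counts in 10X and had no value of 3 or more in Drop-seq. DNAJC3, a J-domain co-chaperone of BiP, held 20 and 6 counts in 10X and none in Drop-seq. SDF2L1, another luminal factor that works with BiP, showed the opposite pattern, with 26, 6 and 21 counts in Drop-seq and none in 10X. Its Drop-seq counts came from 1 cell in each library, with the same barcode in all 3. HYOU1, a large HSP70 relative, held 10, 13 and 10 counts in Drop-seq and 3 at 35 cycles in 10X. HSPA5, which encodes BiP, the chief HSP70 of the lumen, had few values of 3 or more: 3 counts in 10X at 30 cycles, 3 in Drop-seq at 25 cycles and none elsewhere. With all stored values it had 21 counts in 10 cells and 10 counts in 5 cells in 10X at 30 and 35 cycles. DNAJB9 held 3 counts in each 10X library, and DNAJB11, MANF and CRELD2 had no value of 3 or more in any library.

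The disulfide and proline folding enzymes took shares whose ratios had intervals that included 1 when transcripts were summed. Their 6 genes held 18 and 30 counts in 10X and 46, 36 and 46 in Drop-seq, and the ratio of Drop-seq to 10X was 1.43 (0.792 to 2.68) at 30 cycles and 1.39 (0.857 to 2.28) at 35 cycles. With the largest transcript value the ratios were 2.93 (1.09 to 9.13), from 6 and 16 counts, and 2.34 (1.10 to 5.21), from 12 and 21 counts. PDIA6, a protein disulfide isomerase, was the only one stored in every library, with 9 and 21 counts in 10X and 8, 24 and 26 in Drop-seq. P4HB, the founding member of that family, was stored only in 10X (9 counts in each library). PDIA4 was stored only in Drop-seq (10, 12 and 8 counts), in the same single barcode at all 3 cycle numbers. PDIA3 held 18 and 6 counts in Drop-seq at 25 and 35 cycles, PPIB, a peptidyl-prolyl isomerase, 10 at 25 cycles, and PRDX4, a peroxiredoxin, 6 at 35 cycles. With all stored values, 10X at 30 and 35 cycles held 4 and 30 counts of PDIA3, 16 and 20 of PPIB, and 2 and 2 of PRDX4.

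The targeting and translocation genes with the most counts differed between the platforms. SSR2 (chr1:156009048-156020951), a subunit of the TRAP complex that sits beside the channel, held 88 counts in 12 cells and 263 counts in 33 cells, against 12 counts in 1 cell in Drop-seq at 25 cycles and none at 30 and 35. SSR1 was stored on both platforms, with 32 and 15 counts in 10X and 17 and 18 in Drop-seq at 30 and 35 cycles. SSR3 (15 counts) and SSR4 (21 counts) had values of 3 or more in 1 10X library each. With all stored values SSR3 had 51 and 32 counts in 10X at 30 and 35 cycles, and SSR4 76 and 67. The signal recognition particle brings ribosomes to the membrane. Its subunit SRP14 (chr15:40035690-40039181) held 55, 41 and 88 counts in 4, 4 and 6 cells, SRP9 held 24, 22 and 28 counts in 1 or 2 cells, and both were listed at 0 in 10X when values below 3 were left out. With all stored values SRP14 had 22 and 18 counts in 10X and SRP9 24 and 8, so the zeros in 10X were set by the size of single values. SEC61G, the small subunit of the channel, held 42, 16 and 24 counts in Drop-seq and none in 10X. SEC61A1, which forms its pore, held 4 counts at 35 cycles in Drop-seq, and SEC61B and TRAM1 had no value of 3 or more. With all stored values, 10X at 30 and 35 cycles held 46 and 26 counts of SEC61A1 and 32 and 26 of TRAM1. The stored counts there were 0 and 8 for SEC61G and 2 and 2 for SEC61B. SEC62, which assists entry after translation, held 42 counts in 10X at 35 cycles and 3 and 9 in Drop-seq at 30 and 35. SEC63 and SERP1 held at most 22 counts in a library, and SRPRB 3. The role as a whole took 0.586 times (0.453 to 0.757) and 0.502 times (0.421 to 0.597) the 10X share, and without SSR2, left out because it led in 10X, the other 13 genes held 50 counts in 10X against 113 in Drop-seq at 30 cycles and 105 against 204 at 35 cycles. With the largest transcript value the role stood at 0.732 times (0.512 to 1.04) and 0.729 times (0.562 to 0.942).

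The signal peptidase subunits also pointed in opposite directions. SPCS2 (chr11:74949266-74979033) held 34 counts in 10 cells and 145 counts in 35 cells in 10X, and 66, 24 and 20 counts in 3, 2 and 1 cells in Drop-seq. The processed pseudogene SPCS2P4, whose transcript resembles that of SPCS2, held 21 and 57 stored counts in 10X and 30, 10 and 15 in Drop-seq beside 168, 401, 67, 24 and 20 of SPCS2, so the counts of SPCS2 are uncertain by that much. SPCS1 held 44, 26 and 48 counts in Drop-seq and 3 at 35 cycles in 10X, where all stored values gave 30 and 41 counts at 30 and 35 cycles. SPCS3 held 3 and 10 counts in 10X and 3 in Drop-seq at 30 cycles. The catalytic subunits SEC11A and SEC11C had no value of 3 or more. The ratio of the 5 genes was 1.02 (0.661 to 1.60) at 30 cycles and 0.389 (0.289 to 0.521) at 35 cycles, and the 4 genes other than SPCS2, left out because it led in 10X, held 3 counts in 10X against 29 in Drop-seq and 13 against 48.

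The 5 members that are subunits of the oligosaccharyltransferase, which transfers the sugar chain to asparagine, were stored in Drop-seq and none in 10X once values below 3 were left out. RPN2, DDOST and DAD1 were stored in all 3 Drop-seq libraries and no 10X library, as were 23.1% of 4433 named human genes. The pattern thus does not set these genes apart. RPN2 held 6, 34 and 33 counts, DDOST 8, 28 and 30, and DAD1 12, 19 and 18 at 25, 30 and 35 cycles. OSTC held 17 counts at 25 cycles and 6 at 35, and RPN1 3 and 4 at 30 and 35. These sums stood on 1 to 4 cells per gene and library. With all stored values the 5 genes held 34 and 48 counts in 10X, 0.0210% and 0.0241% of human counts, against 0.0529%, 0.125% and 0.0973% in Drop-seq. These shares are not on a common scale, since the smallest stored value differs between the platforms. Among retrieval and cargo receptors, again with values below 3 left out, KDELR1 was present in every library at 3 to 12 counts. KDELR2 was present only in Drop-seq (5, 5 and 4), TMED2 only in Drop-seq at 25 cycles (29), and TMED10 nowhere. With all stored values, 10X at 30 and 35 cycles held 22 and 2 counts of KDELR2, 10 and 6 of TMED2, and 8 and 12 of TMED10.

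Degradation genes were seen mainly in 10X. HERPUD1, a membrane protein of the degradation complex that is induced by the unfolded protein response (chr16:56932142-56944864, 8 exons), held 96 counts in 12 cells and 40 counts in 6 cells in 10X and had no value of 3 or more in Drop-seq, where 3 counts were stored at 25 cycles. SELENOS, a selenoprotein of the same complex, held 12 counts in each 10X library and none in Drop-seq. SEL1L, the adaptor of the ubiquitin ligase, held 13 and 24 counts in 10X and 3 in Drop-seq at 25 cycles, and EDEM1, a mannosidase-like factor, 12 and 4 in 10X and 3 in Drop-seq at 35 cycles. ERLEC1, a lectin, had values of 3 or more only in Drop-seq at 35 cycles (20 counts in 2 cells). With all stored values it also held 10 counts in 2 cells in 10X at 35 cycles.

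A gene was compared one by one only where it had at least 100 counts over both libraries and was called changed where its share of human counts differed at least 2-fold. No member reached the minimum between platforms at 30 cycles, where 90.3% of 145 human genes tested were called (60.7% higher and 29.7% lower in Drop-seq). At 35 cycles 3 members reached it, HSP90B1 and SSR2 through their 10X counts alone and SPCS2 with 145 of its counts in 10X, so that their direction was fixed by the minimum. All 3 were lower in Drop-seq, where 91.0% of 199 genes were called, 65.8% higher and 25.1% lower. HSP90B1 fell from 258 counts to none stored, SSR2 from 263 to none stored, and SPCS2 from 145 to 20 (log2 ratio -2.97, interval -3.76 to -2.32). With so large a share of all genes called, these 3 calls do not set the members apart. Over the 5 libraries with values below 3 left out, 9 members were stored in all 3 Drop-seq libraries and neither 10X library (PDIA4, SDF2L1, SEC61G, RPN2, DDOST, DAD1, SRP9, SRP14 and KDELR2). These were 21.4% of the 42 members stored in any library, against 23.1% of 4433 named human genes, a share near the background. For all 9, a barcode called human in all 3 libraries carried the gene in each of them, so the 3 cycle numbers are largely 1 observation. The reverse pattern, both 10X libraries and no Drop-seq library, held for 6 members (P4HB, CANX, DNAJB9, DNAJC3, SELENOS and HERPUD1), 14.3% of the 42 against 6.05% of all genes. PDIA6, CALR, SPCS2, KDELR1 and SERP1 were stored in all 5 libraries, and 8 members in none. With all stored values, 37 members were seen on both platforms, 11 in 10X alone, 1 in Drop-seq alone (PDIA4) and 1 in none (CRELD2). Of 49 members stored, 75.5% were thus seen on both platforms and 22.4% in 10X alone, against 30.5% and 58.6% of 9813 named human genes, without regard to how many counts a gene had.

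The number of cells with a member depended on the smallest stored value. As stored, 439 of 1006 human cells (43.6%) carried a member in 10X at 30 cycles and 470 of 911 (51.6%) at 35 cycles. For the Drop-seq libraries at 25, 30 and 35 cycles the numbers were 64 of 251 (25.5%), 27 of 166 (16.3%) and 35 of 165 (21.2%). The cell with the most member counts held 6.20% and 4.02% of them in 10X and 14.6%, 15.7% and 14.8% in Drop-seq with values below 3 left out. After each cell was thinned to 100 counts, the shares were 48.0% and 47.6% in 10X (352 and 0 shallower cells left out) and 17.1%, 13.3% and 16.4% in Drop-seq (0 left out). This order did not hold on a common scale. With values below 3 left out the unthinned shares were 7.75% and 13.9% in 10X and 11.6%, 16.3% and 21.2% in Drop-seq, and after thinning to 30 counts the 5 intervals overlapped (7.33% to 11.7%, with 441 and 33 shallower 10X cells and 19, 0 and 0 Drop-seq cells left out). Mouse cells, in which human transcripts mark stray RNA or misassigned reads, carried a member in 2 of 806 and 1 of 881 cells in 10X and in 29 of 590, 1 of 291 and 1 of 309 in Drop-seq, at median depths of 117, 171, 282.5, 278 and 417 counts. Since cells were assigned by species, a lower number in mouse cells was fixed by that rule. In 10X mouse cells at 30 and 35 cycles, 0.186% and 0.0620% of human counts lay on members, against 1.69% and 1.76% in human cells. In Drop-seq mouse cells these were 0.344%, 0.531% and 0.208% at 25, 30 and 35 cycles, against 0.543%, 0.494% and 0.527% in human cells. The human counts in mouse cells were few, and the 0.531% was 12 of 2258 counts in 1 barcode.

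Both 10X libraries could be compared with all stored values, and here more members than elsewhere had enough counts for the difference between 30 and 35 PCR cycles to be measured. The ratio of the 50 genes' share at 35 to that at 30 cycles was 1.04, with an interval that included 1 (0.993 to 1.10). The luminal chaperones stood at 1.26 times (1.14 to 1.40), the signal peptidase at 1.59 times (1.36 to 1.85), the degradation genes at 0.568 times (0.501 to 0.644) and targeting and translocation at 1.10 times (1.01 to 1.20). With only the largest transcript value per gene and barcode, the chaperones were at 1.04 times (0.907 to 1.20) and translocation at 1.01 times (0.897 to 1.15), so that neither interval excluded 1, while the signal peptidase was at 1.59 times (1.33 to 1.89) and degradation at 0.549 times (0.457 to 0.659). Leaving out the gene with the most counts in each role, chosen after its values were seen, lowers such a ratio where that gene was higher at 35 cycles. Without HSP90B1 the chaperones stood at 0.702 times (0.597 to 0.825), without SPCS2 the signal peptidase at 0.938 times (0.701 to 1.26), and without SSR2 the translocation genes at 0.839 times (0.737 to 0.954). Without HERPUD1 the degradation genes stood at 0.684 times (0.533 to 0.876). The 46 genes other than these 4 stood at 0.806 times (0.746 to 0.871). Plasma cell markers moved in these libraries too, to 0.651 times (0.595 to 0.712), and cytosolic chaperones to 2.01 times (1.86 to 2.17); their part in the members' changes was not tested.

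**Figure D3:**
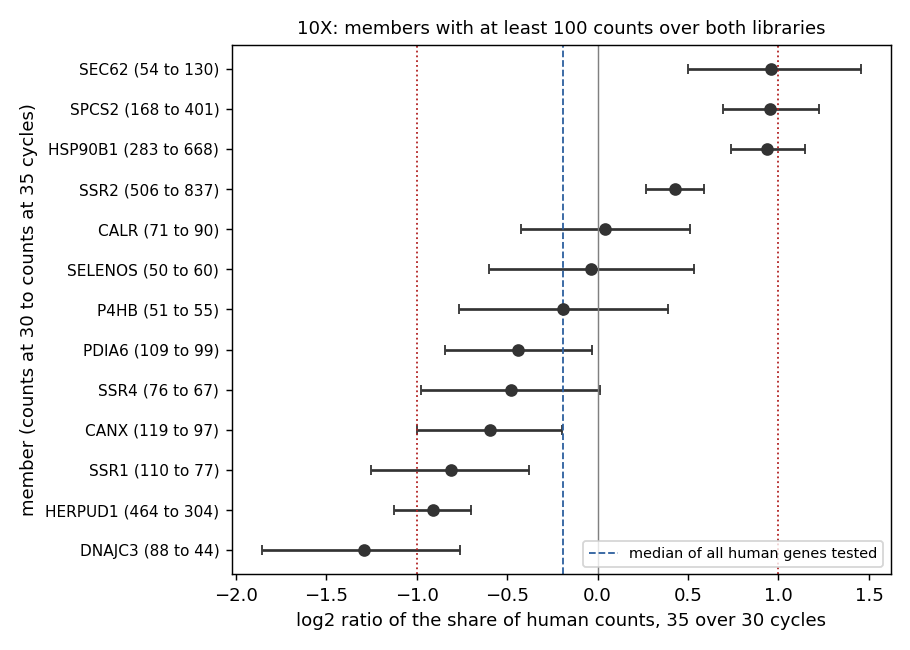
Log2 ratio of the share of human counts at 35 over 30 cycles in 10X (horizontal axis) for the 13 members with at least 100 counts over both libraries, with 95% counting intervals; dotted lines mark 2-fold and the dashed line the median of all 391 human genes tested, -0.19. SEC62, SPCS2 and HSP90B1 lay near 0.95 and DNAJC3 at -1.29.

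Of 13 members with enough counts, 1 was called changed, DNAJC3, which was lower at 35 cycles, where 30.2% of 391 human genes tested were called, 10.2% higher and 19.9% lower. The median log2 ratio of the 13 members was -0.19, the same as over all genes tested, with 5 members above 0 and 8 below. DNAJC3 fell from 88 counts in 39 cells to 44 counts in 19 cells (log2 ratio -1.29, interval -1.86 to -0.76). SEC62 went from 54 counts in 14 cells to 130 counts in 29 cells (log2 ratio 0.96, 0.50 to 1.45). SPCS2 went from 168 counts in 60 cells to 401 counts in 126 cells (0.95, 0.69 to 1.22), and HSP90B1 from 283 counts in 51 cells to 668 counts in 100 cells (0.94, 0.74 to 1.15). These 3 stood just inside the 2-fold line on the scale of all human counts. When the libraries were scaled by the median ratio of genes instead, which shifts every value up by 0.19, they crossed it (1.15, 1.14 and 1.13 for SEC62, SPCS2 and HSP90B1), so that 3 members were higher and 1 lower in place of 0 and 1. SSR2 went from 506 counts in 88 cells to 837 counts in 131 cells (0.43, 0.27 to 0.59). HERPUD1 went from 464 counts in 85 cells to 304 counts in 54 cells (-0.91, -1.12 to -0.70) and SSR1 from 110 counts in 46 cells to 77 in 31 (-0.81, -1.25 to -0.38). CANX (-0.59) and PDIA6 (-0.44) had intervals below 0, whereas those of SSR4, P4HB, SELENOS and CALR included 0. Among all human genes tested, canonical transcripts of 4000 bases or more had a median log2 ratio of -0.63 (171 genes) and shorter ones 0.18 (220 genes). The members followed that order only loosely, with -0.70 for 4 longer members and -0.04 for 9 shorter ones; DNAJC3 (5590 bases) fell, but SEC62 (6526 bases) did not. Spearman's rho with length was -0.24 across the 13 members and -0.31 across the 391 genes, given as a description, since genes share the libraries.

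The rank of members among human genes shifted accordingly. SSR2 was number 35 at 30 cycles and number 28 at 35, HSP90B1 62 and 34, SPCS2 103 and 51, and HERPUD1 39 and 62, of all named human genes with counts. With all stored values the highest member in Drop-seq was SRP14, at 297, 308 and 172 for 25, 30 and 35 cycles, although at 25 cycles SPCS2 held more counts (66 against 55) once values below 3 were left out. When counts were divided by the median length of a gene's stored transcripts, SPCS2 ranked 46 and 31, SSR2 26 and 25, and HSP90B1 93 and 53 in 10X. On this length scale SPCS2 thus stood above HSP90B1 in both libraries. With the largest transcript value per gene and barcode SPCS2 also held more counts than HSP90B1, 131 and 300 against 113 and 237.

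**Figure D4:**
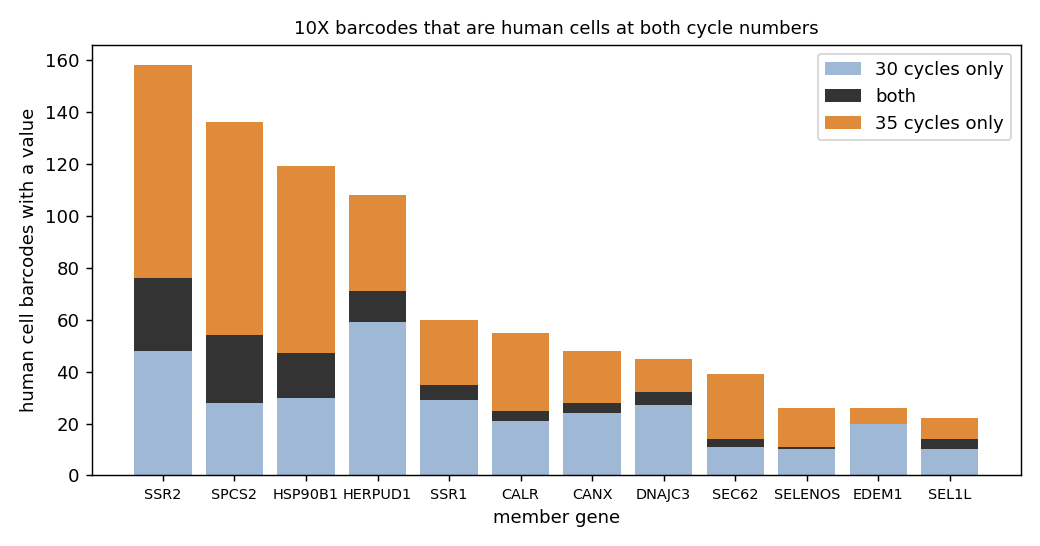
Number of human cell barcodes (vertical axis) with a stored value of a member at 30 cycles alone, at both cycle numbers or at 35 cycles alone, among the 722 barcodes that were human cells in both 10X libraries, for the 12 members with the most values. SPCS2 was stored in 26 barcodes at both cycle numbers, in 28 at 30 cycles alone and in 82 at 35 cycles alone.

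Among the 722 barcodes that were human cells in both 10X libraries, most member values appeared at 1 cycle number alone. Of 586 values at 30 cycles, 123 (21.0%, 17.8 to 24.5) were stored again at 35 cycles, against 29.5% of 33833 values of all named human genes. Among the 4 members with the most counts, SPCS2 returned in 26 of 54 barcodes, SSR2 in 28 of 76 and HSP90B1 in 17 of 47, while HERPUD1 returned in 12 of 71. HSP90B1 was stored in 72 further barcodes and SPCS2 in 82 at 35 cycles alone. In Drop-seq, 31 of 35 member values at 30 cycles (88.6%, 73.3 to 96.8) were stored again at 35 cycles in 145 common barcodes, close to the 87.3% of all genes. From 25 to 30 cycles 18 of 29 (62.1%, 42.3 to 79.3) returned, against 75.2% of all genes.

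In Drop-seq the share of the 50 genes at 35 cycles was 1.07 times that at 30 cycles (0.926 to 1.23). SRP14 was the only member with 100 counts and was not called, going from 41 counts in 4 cells to 88 in 6 (log2 ratio 0.61, 0.07 to 1.20), where 1.97% of 304 genes were called (0.987% higher and 0.987% lower). From 25 to 30 cycles the share was 0.826 times (0.716 to 0.952), and no member reached the minimum, where 20.2% of 272 genes were called (6.25% higher and 14.0% lower). That difference reversed to 1.21 times, with an interval that included 1, when a human cell had to hold 95% human counts, so it rested on which barcodes were called human. TMED2, which held 29 counts in 1 cell at 25 cycles and none at 30, and HSP90B1, with 36 counts in 1 cell at 25 cycles, show how much 1 cell contributed. The same barcode could carry a gene through all 3 cycle numbers: of 119 barcodes called human in all 3 libraries, 13 did so for 16 members. Each in 1 such cell and in the order of 25, 30 and 35 cycles, SPCS2 held 46, 16 and 20 counts, RPN2 held 6, 22 and 27, and SPCS1 held 38, 20 and 24.

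**Figure D5:**
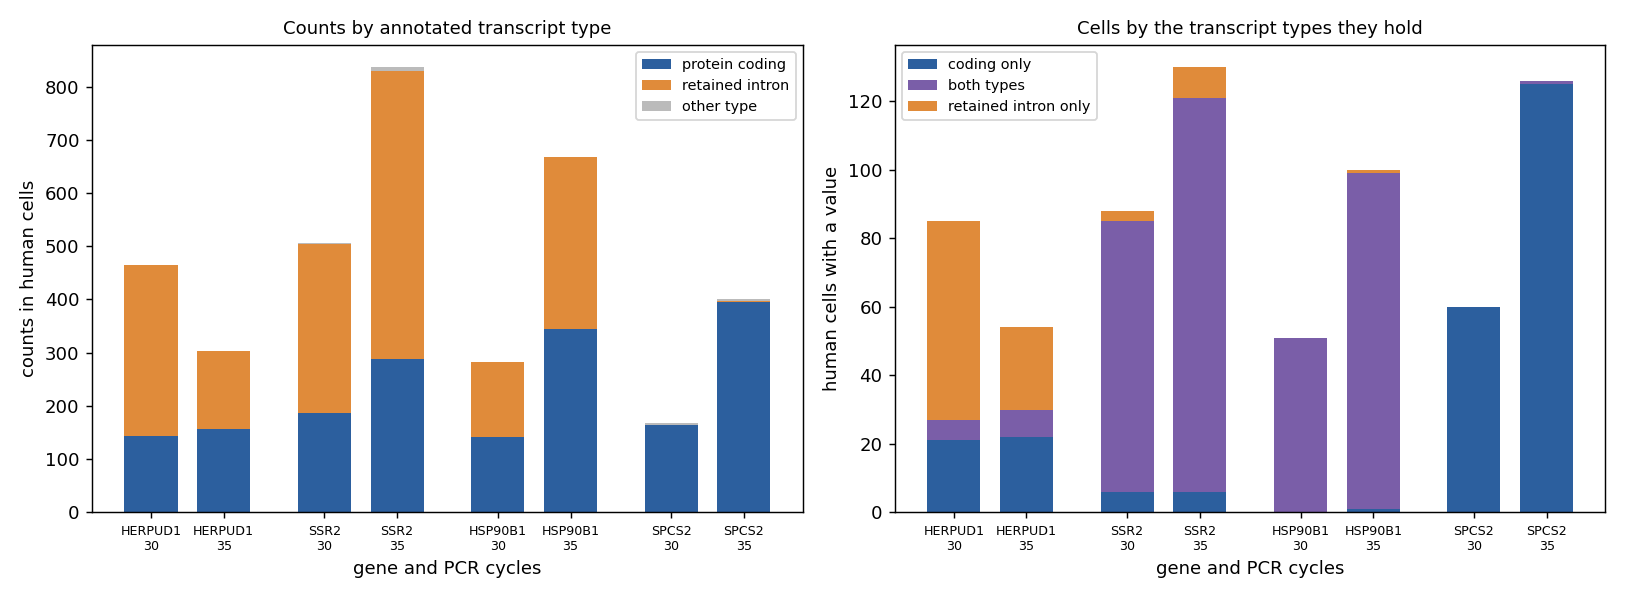
Counts (left) and human cells with a value (right) of HERPUD1, SSR2, HSP90B1 and SPCS2 in 10X at 30 and 35 cycles, split by the annotated type of transcript; both vertical axes start at 0. HERPUD1 lost its retained-intron part, from 321 to 148 counts, while its protein-coding part went from 143 to 156.

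Long reads assigned members to annotated transcripts, and in 10X a large part of the counts lay on transcripts annotated as retaining an intron. These took 31.1% (29.4 to 32.9) and 30.9% (29.3 to 32.4) of member counts at 30 and 35 cycles, against 9.19% and 7.20% of all named human counts. In Drop-seq they took 7.03%, 2.11% and 0% of member counts at 25, 30 and 35 cycles, against at most 6.81% of all named human counts. The excess came mainly from 3 genes, HSP90B1, SSR2 and HERPUD1, and in HSP90B1 and SSR2 the coding and retained-intron counts lay mostly in the same cells. For HSP90B1, 51 of 51 cells at 30 cycles and 98 of 100 at 35 held both coding and retained-intron values, and its coding transcript ENST00000299767 and retained-intron transcript ENST00000548462 held 113 counts each at 30 cycles. For SSR2 both types were held by 79 of 88 and 115 of 131 cells. The sum over transcripts exceeded the largest transcript per cell 1.82-fold and 1.99-fold for the members in 10X, against 1.52-fold and 1.59-fold for all genes.

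HERPUD1 differed from both. At 30 cycles 58 of its 85 cells held retained-intron values alone, 21 coding values alone and 6 both, and at 35 cycles these were 24, 22 and 8 of 54. Its retained-intron share of human counts fell to 0.375 times (0.306 to 0.457), while its coding share stood at 0.886 times (0.702 to 1.12). Nearly all the retained-intron counts lay on 3 models, 2199, 1125 and 511 bases long, that together cover much of the gene. In that order they were ENST00000564678 (chr16:56935951-56943877, 121 and 64 counts), ENST00000569569 (chr16:56932147-56937413, 102 and 44 counts) and ENST00000566550 (chr16:56934965-56935563, 96 and 38 counts). The canonical coding transcript ENST00000439977 held 55 and 60 counts. In 55 of the 64 cells with several HERPUD1 transcripts at 30 cycles all of them held the same value. Most values lay near the smallest stored value of 2 (121 counts in 56 cells for the first model). Equal values therefore cannot show whether the counts overlap, which was not tested. The lower total of HERPUD1 at 35 cycles lay in the retained-intron counts, and the interval of the coding ratio included 1. SSR2 and HSP90B1 rose in both types, at 1.26 and 1.38 times for coding and retained-intron counts of SSR2 and 1.97 and 1.86 times for those of HSP90B1. SPCS2, whose counts were nearly all coding, rose 1.96 times (1.63 to 2.36).

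Members that end in the retrieval signal and members with an ER stress element were also compared as groups. Most of the retrieval-signal members, among them HSP90B1, HSPA5, PDIA6 and SDF2L1, also have an element. The groups are therefore not separate observations. The 7 retrieval-signal members held 117 and 324 counts in 10X and 58 and 69 in Drop-seq at 30 and 35 cycles, 0.355 times (0.254 to 0.490) and 0.193 times (0.146 to 0.251) in share. HSP90B1 alone held 73 and 258 of these counts in 10X, against 8 and 0 in Drop-seq. The 10 members with an element held 240 and 397 counts against 67 and 93, 0.200 times (0.150 to 0.263) and 0.212 times (0.167 to 0.266). HSP90B1 and HERPUD1 (96 and 40 counts in 10X, 0 and 0 in Drop-seq) held most of these 10X counts. In 10X from 30 to 35 cycles the retrieval-signal members stood at 1.40 times (1.26 to 1.56) and those with an element at 0.977 times (0.901 to 1.06). Of the 535 and 924 counts of the retrieval-signal members there, HSP90B1 held 283 and 668. The group ratios were thus largely those of 1 or 2 genes and do not describe the groups as a whole. HSPA5 and PDIA4 carry the signal and were at or near 0 in 10X with values below 3 left out, so the signal did not mark a common level.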

How the data were processed

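The authors deposited, for 5 of 6 samples, matrices of UMI counts (whole numbers, not normalized), with barcodes as 1 dimension and Ensembl transcripts as the other. In the study's methods, reads were base called with Guppy and mapped with minimap2 to hg38 and mm10 transcripts. 10X UMIs were counted by the directional method; which counting made the Drop-seq matrices is not given in the sources used here. The file of the other sample held only totals of reads, not counts per gene, and was not used. Transcript identifiers without version were joined to GENCODE release 44, which named 91.9% of 46484 human transcripts; 6.48% to 7.91% of human counts in human cells had no gene name and stayed in the totals. Counts were summed over transcripts and cells with Python 3.11.15, numpy 2.4.6, pandas 2.3.3 and scipy 1.17.1. Shares have exact binomial (Clopper-Pearson) 95% intervals and ratios exact conditional binomial ones. Log2 ratios used a pseudocount of 0.5, a minimum of 100 counts over both libraries and a 2-fold rule. Since UMI errors and repeated transcripts are not independent molecules, intervals understate the spread. The call was run on simulated counts scaled by the median ratio of genes. The reported calls were scaled by all human counts, so that run does not cover them. Named genes were the 3 highest of each role, every member called and the 3 highest and lowest ratios of each comparison; further members were named to account for all 50, and some after their values were seen. Doublets were removed only by the species rule, so human doublets remain. The members and lists were chosen with earlier results of these data known. The coding end of 1 member with a retrieval signal is not reported here.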

Additional observations from a re-analysis of the deposited data

Results flagged for a closer look

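The effect of 35 against 30 cycles went in opposite directions on the 2 platforms for 3 roles with at least 30 counts in each of the 4 libraries. Luminal chaperones stood at 1.26 times in 10X and 0.923 times in Drop-seq, signal peptidase at 1.59 and 0.921 times, and oligosaccharyltransferase at 1.15 and 0.778 times. The difference between platforms was not tested, since each value rests on 1 library per cycle number, and the Drop-seq intervals and that of oligosaccharyltransferase in 10X all included 1. The directions were not stable. Without HSP90B1 the chaperones stood at 0.702 times in 10X and 1.20 times in Drop-seq, and without SPCS2 the signal peptidase at 0.938 and 1.19 times. With the largest transcript value per gene and barcode the chaperones stood at 1.04 and 1.15 times, in the same direction.

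Human transcripts of the 50 genes were also present in barcodes outside the called cells, which no comparison used. They took 1.44% and 1.39% of human counts there in 10X at 30 and 35 cycles and 0.581%, 0.711% and 0.630% in Drop-seq at 25, 30 and 35 cycles, below the human cells of 10X and above those of Drop-seq.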

How the results depend on the processing

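No test over paired replicates was possible, since each group was 1 library. Barcodes common to 2 libraries were compared as counts of values. The 35 over 30 cycle ratios were also taken over barcodes that were human cells in both libraries. The platform ratios of 0.491 and 0.460 at 30 and 35 cycles stayed below 1 under the 8 alternatives run on all 50 genes. They were 0.683 and 0.683 with only the largest transcript per gene and barcode, 0.706 and 0.646 with protein-coding transcripts alone, 0.293 and 0.299 with values as stored, and 0.375 and 0.352 without mitochondrial genes. With values in place of counts, chosen after seeing the data, they were 0.653 and 0.555. The 30 over 25 cycle ratio in Drop-seq turned from 0.826 to 1.21 at 95% purity; the cause was not tested. Other ratios of the 50 genes' share stayed within the interval of the reported value. Ratios of single roles and of other lists moved more with the largest transcript value, an alternative added for them after seeing the data, and are given beside their results. Members called between platforms at 30 and 35 cycles went from 0 and 3 to 6 and 7 with values as stored, 3 and 7 with a minimum of 50 counts, and 12 and 17 with a minimum of 20, which was added after seeing the data. In 10X by cycle, 1 call became 2 with barcodes of at least 100 counts or protein-coding transcripts, 3 with a minimum of 50 counts, 0 with a minimum of 200, and 4 with the median of ratios or with numbers of cells (added after seeing the data). From 25 to 30 cycles 0 became 2 with a minimum of 50. Alternatives that left no member above the minimum gave no value. At the reported settings 90.3% and 91.0% of all genes tested were called between platforms at 30 and 35 cycles. In 10X by cycle 30.2% were called, and from 25 to 30 cycles in Drop-seq 20.2%. Shares of all genes called were not taken under the alternatives, so these numbers of members called do not set the members apart.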
